A study of Mus musculus with 6 samples.

Results

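The 7 genes described here act at both ends of the switch between growth and self-digestion that the kinase MTOR controls. They were taken by name from a deposited table of 516 genes measured in mouse metaphase II oocytes, the mature eggs arrested in the second meiotic division. Becn1, Atg12, Atg101, Rubcnl and Ncoa4 act in autophagy, and Castor1 and Depdc5 restrain MTORC1. The table carries 3 of them under older names: Castor1 as Gatsl3, Atg101 as 9430023L20Rik and Rubcnl as 5031414D18Rik. In each of these 3 rows the Ensembl identifier and the single annotated transcript belong to the gene given by its current name.

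Autophagy wraps cytoplasm in a double membrane, the autophagosome, and delivers it to the lysosome for breakdown. MTORC1, the nutrient-sensing complex of MTOR, holds the process back by phosphorylating the kinase complex that starts it, and amino acids switch MTORC1 on at the lysosome through the Rag GTPases. Proteins that report a lack of amino acids, such as CASTOR1 and the GATOR1 complex, switch it off. In mice, autophagy of maternal material in the early embryo is needed for development after fertilisation.

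RNA was sequenced from Mtor CKO oocytes, in which Mtor had been deleted in the oocyte by Zp3-Cre, a recombinase under a promoter active in growing oocytes (3 libraries), and from WT oocytes (3 libraries). All mice were C57BL/6. Mice of both genotypes were primed with PMSG (5 IU) when 22 days old, given hCG (5 IU) after a further 48 h, and killed 14 h later for collection of the ovulated oocytes from the oviduct. Each library pooled 5 oocytes. The labels give the age as postnatal day 24. They do not say whether libraries of a genotype came from separate mice, so the p-values reflect only how far these particular libraries scatter, part of which may be technical. Which alleles or transgenes the WT mice carried is not given in the sources used here.

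Values are FPKM, the fragments of a transcript divided by its length and by the library's total of mapped fragments, so a level is relative to the rest of the RNA in that library. With oocytes lysed together, fewer cells holding a transcript and less of it per cell cannot be told apart. Depth per library is unknown. The rows of the table had been picked by the authors for a difference between these same libraries (absolute log2 fold above 1 and p under 0.01). A difference between the genotypes in any of the 7 genes is therefore a description of a chosen row, and passing a test on the same libraries is no independent evidence of it. Mtor itself was not analysed here, so the labels have no check from the targeted gene. The median FPKM over the table was 3.77 to 5.40 in the Mtor CKO libraries and 7.37 to 9.18 in the WT libraries, and the authors' deposited table lists 394 of its 516 genes as lower in Mtor CKO. Of 22 defining oocyte markers, Nlrp5, Zp2 and Zar1l were in the table, with a summed level of 257 to 290 FPKM in Mtor CKO and 469 to 916 FPKM in WT. Nlrp5 and Zp2 were lower in Mtor CKO, while Zar1l was higher, at 22.6 to 36.4 FPKM in Mtor CKO and 9.24 to 18.8 FPKM in WT.

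Promoter sequences are shown for 4 of the 5 genes whose rows hold no other protein-coding gene. Atg12, the remaining gene, was not searched. The sequences let the values below be set beside the DNA from which each transcript starts. Castor1 and Depdc5 restrain MTORC1 and Atg101 starts autophagy, and the authors' deposited table lists these 3 as lower in Mtor CKO and Rubcnl as higher. Each run gives the 250 bases before the annotated start, 5′ to 3′ on the + strand, from RefSeq on GRCm38.p6, which is the mm10 assembly: chr11:4217975-4218224 for Castor1, chr5:32863471-32863720 for Depdc5, chr15:101284051-101284300 for Atg101 and chr14:75015777-75016026 for Rubcnl. Capitals mark the GC box (GGGCGG) and the CCAAT box (CCAAT), each searched on both strands.
Castor1: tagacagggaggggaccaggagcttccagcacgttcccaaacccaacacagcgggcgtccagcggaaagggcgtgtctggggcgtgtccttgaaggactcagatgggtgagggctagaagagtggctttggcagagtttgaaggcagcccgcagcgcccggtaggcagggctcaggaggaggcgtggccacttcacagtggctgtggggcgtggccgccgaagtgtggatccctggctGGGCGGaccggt
Depdc5: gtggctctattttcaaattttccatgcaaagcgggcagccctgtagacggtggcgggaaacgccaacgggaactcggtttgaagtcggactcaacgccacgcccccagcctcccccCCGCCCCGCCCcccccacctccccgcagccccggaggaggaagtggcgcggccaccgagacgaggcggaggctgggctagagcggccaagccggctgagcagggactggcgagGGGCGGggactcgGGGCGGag
Atg101: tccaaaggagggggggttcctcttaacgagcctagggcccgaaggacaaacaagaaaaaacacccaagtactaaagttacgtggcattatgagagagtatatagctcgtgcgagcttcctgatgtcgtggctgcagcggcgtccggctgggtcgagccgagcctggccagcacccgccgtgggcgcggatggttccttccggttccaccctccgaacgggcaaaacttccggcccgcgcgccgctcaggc
Rubcnl: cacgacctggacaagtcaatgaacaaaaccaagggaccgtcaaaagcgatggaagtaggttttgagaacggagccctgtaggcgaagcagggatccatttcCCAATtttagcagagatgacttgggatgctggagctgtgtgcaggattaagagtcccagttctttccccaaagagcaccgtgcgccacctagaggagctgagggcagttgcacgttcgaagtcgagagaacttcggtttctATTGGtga

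The window of Depdc5 held 4 GC boxes, of which the leftmost pair overlap by 1 base, and that of Castor1 held 1. The window of Rubcnl held 2 CCAAT boxes and no GC box, and that of Atg101 held neither. Of 32851 promoter windows of the same length, 32.74% held a GC box and 33.85% a CCAAT box. The core of the CLEAR element (CACGTG), the E-box bound by TFEB, a lysosome and autophagy regulator that MTORC1 phosphorylates, was in 6.02% of all windows. It was not among the letters of these 4 windows or of 3 windows for Ncoa4. A FOXO motif (TGTTTAC), found in 3.17% of all windows, was in none of these 7 windows either. GC content was 70.0% for Depdc5, 65.2% for Castor1, 61.2% for Atg101 and 51.2% for Rubcnl, against a median of 52.4% over all windows.

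In Mtor CKO oocytes 4 of the genes fell (Becn1, Atg12, Ncoa4 and Castor1) and Rubcnl rose, by limma with Benjamini-Hochberg adjustment over the 471 genes of the table that reached 1 FPKM in 3 or more of the libraries. Atg101 was tested and did not pass, and Depdc5 was too low to be tested. The 5 calls among the 6 tested genes stand against a background of 73.7% of the tested genes of the table called in either direction, 60.3% called lower and 13.4% called higher. In 4 of the 7 genes every Mtor CKO library lay below every WT library, as in 57.4% of the table, and in 1 every Mtor CKO library lay above, as in 14.5%. The median log2 difference of the 6 tested genes was -1.03 on the log2(FPKM + 1) scale, and that of the 471 genes was also -1.03. Read against these shares, the counts do not set the 7 genes apart from the table.

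**Figure D1:**
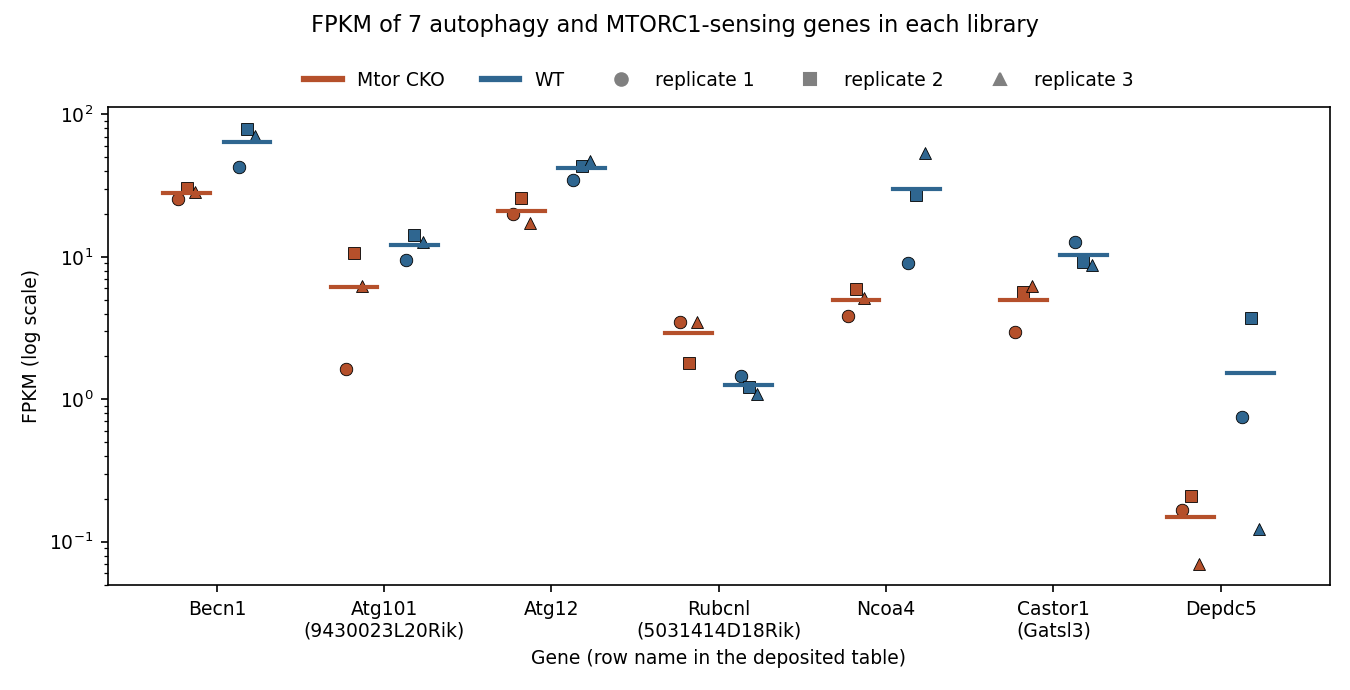
FPKM on a log axis for the 7 genes (row names of the table in brackets), with Mtor CKO in red left of WT in blue. Symbols are the 3 libraries of a genotype and bars their mean. The libraries overlap between genotypes for Atg101 and Depdc5, and Rubcnl is the gene with higher values in Mtor CKO.

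ATG101 is a subunit of the ULK1 kinase complex that starts autophagy and that MTORC1 inhibits. Its gene (ENSMUSG00000037204, chromosome 15, 101284301 to 101290934, + strand) stood at 1.62, 10.6 and 6.21 FPKM in Mtor CKO and at 9.43, 14.3 and 12.7 FPKM in WT. The Mtor CKO libraries spread 6.53-fold, and replicate 2 lay above the lowest WT library, so the genotypes overlapped. The mean was 6.14 ± 4.48 FPKM in Mtor CKO oocytes and 12.1 ± 2.49 FPKM in WT oocytes (SD, n = 3 libraries each). The log2 difference was -1.11 (SE 0.54, limma adjusted p = 0.0803, 95% interval -2.34 to 0.12). It was -0.51 without Mtor CKO replicate 1 and -1.58 without Mtor CKO replicate 2, where it passed (limma adjusted p = 0.0217). The q-value of Atg101 was 0.177 in the authors' deposited table, and the group FPKM there was 0.605 of the library mean in Mtor CKO and 0.659 in WT, where the median over the table was 0.916 and 0.915.

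Beclin 1 is the scaffold of the class III phosphatidylinositol 3-kinase complex that marks the membrane where an autophagosome forms. Becn1 (ENSMUSG00000035086, chromosome 11, - strand) was the most abundant of the 7 genes in both genotypes. It stood at 25.6, 30.6 and 28.4 FPKM in Mtor CKO and at 42.7, 79.5 and 70.5 FPKM in WT. No library of one genotype reached the range of the other, and the Mtor CKO libraries lay much closer together than the WT libraries. The mean was 28.2 ± 2.51 FPKM in Mtor CKO oocytes and 64.2 ± 19.2 FPKM in WT oocytes (SD, n = 3 libraries each), 43.9% of the WT level. The log2 difference was -1.12 (SE 0.36, limma adjusted p = 0.0374). The highest Mtor CKO and the lowest WT library were 1.40-fold apart. The q-value of Becn1 was 0.144. in the authors' deposited table

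ATG12 is a ubiquitin-like protein that is joined to ATG5, and the conjugate attaches LC3 to the growing membrane. Atg12 (ENSMUSG00000032905, chromosome 18, 46732417 to 46741579, - strand) stood at 19.96, 26.0 and 17.3 FPKM in Mtor CKO and at 34.6, 43.3 and 47.4 FPKM in WT. The genotypes did not overlap, and the gap between the nearest libraries was 1.33-fold. The mean was 21.1 ± 4.47 FPKM in Mtor CKO oocytes and 41.8 ± 6.53 FPKM in WT oocytes (SD, n = 3 libraries each), and the log2 difference was -0.96 (SE 0.33, limma adjusted p = 0.0403). Atg12 had the lowest spread of the lower genes in WT (coefficient of variation 15.6%), and its q-value in the authors' deposited table was 0.00591. That table gave 2 of the 7 genes, Atg12 and Depdc5, a q-value of at most 0.05, against 49.2% of its 516 genes.

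Rubcnl encodes the protein also called Pacer, a relative of the autophagy inhibitor Rubicon that binds UVRAG and promotes the fusion of autophagosomes with lysosomes in human cells. The gene (ENSMUSG00000034959, chromosome 14, 75016027 to 75052532, + strand) was low in both genotypes, at 3.47, 1.81 and 3.50 FPKM in Mtor CKO and at 1.45, 1.21 and 1.09 FPKM in WT. It was the 1 gene of the 7 in which the 3 Mtor CKO libraries lay above the 3 WT libraries, and Mtor CKO replicate 2 came nearest to WT, 1.25-fold above the highest. The mean was 2.93 ± 0.970 FPKM in Mtor CKO oocytes and 1.25 ± 0.181 FPKM in WT oocytes (SD, n = 3 libraries each), a 2.34-fold ratio. The log2 difference was 0.77 (SE 0.29, limma adjusted p = 0.0425), which understates the ratio of so low a gene because 1 is added to each FPKM. The call was lost with a pseudocount of 0.1 (log2 difference 1.11, limma adjusted p = 0.0532), without the filter on level (limma adjusted p = 0.0504) and in a limma fit without the trend (adjusted p = 0.0547). The q-value of Rubcnl in the authors' deposited table was 0.122.

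NCOA4 is the cargo receptor that carries ferritin, the iron store of the cell, to the autophagosome, and it was first described as a coactivator of nuclear receptors. Ncoa4 (ENSMUSG00000056234, chromosome 14, + strand) stood at 3.84, 5.94 and 5.12 FPKM in Mtor CKO and at 9.01, 27.4 and 53.6 FPKM in WT. The Mtor CKO libraries lay within 1.55-fold of each other and the WT libraries spread 5.95-fold, so the size of the difference rested on which WT library was taken. The mean was 4.97 ± 1.06 FPKM in Mtor CKO oocytes and 30.0 ± 22.4 FPKM in WT oocytes (SD, n = 3 libraries each). The log2 difference of -2.08 (SE 0.58, limma adjusted p = 0.0362, 95% interval -3.40 to -0.75) was the lowest of the 6 tested genes and 17th from the lowest of the 471. Over all 6 libraries the ratio of means, WT over Mtor CKO, was 6.04, which became 3.66 when WT replicate 3 was left out and 8.15 when WT replicate 1 was. In each case the Mtor CKO libraries stayed below the WT libraries. Ncoa4 had a q-value of 0.0882 in the authors' deposited table.

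CASTOR1 is a cytosolic arginine sensor that, in human cells, binds the GATOR2 complex when arginine is scarce and so lowers MTORC1 activity. Castor1 (ENSMUSG00000020424, chromosome 11, 4218225 to 4222409, + strand) stood at 2.98, 5.63 and 6.28 FPKM in Mtor CKO and at 12.7, 9.26 and 8.74 FPKM in WT. The genotypes did not overlap, and the nearest libraries were 1.39-fold apart. The mean was 4.96 ± 1.75 FPKM in Mtor CKO oocytes and 10.2 ± 2.17 FPKM in WT oocytes (SD, n = 3 libraries each). The log2 difference of -0.95 (SE 0.38, limma adjusted p = 0.0478) lay closest of the 5 calls to the threshold. It was -0.68 without Mtor CKO replicate 1 (limma adjusted p = 0.138) and the call was lost without the filter on level (limma adjusted p = 0.0507). The q-value of Castor1 in the authors' deposited table was 0.102, and its group FPKM there was 0.687 of the library mean in Mtor CKO and 0.748 in WT.

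DEPDC5 is a subunit of GATOR1, the complex that inactivates the Rag GTPases and thereby MTORC1. Depdc5 (ENSMUSG00000037426, chromosome 5, 32863701 to 32994231, + strand) was the lowest of the 7 genes in Mtor CKO, at 0.166, 0.210 and 0.0702 FPKM, and stood at 0.746, 3.70 and 0.123 FPKM in WT. WT replicate 3 lay below Mtor CKO replicates 1 and 2, so the genotypes overlapped, and a single library, WT replicate 2, reached 1 FPKM. The mean was 0.149 ± 0.0713 FPKM in Mtor CKO oocytes and 1.52 ± 1.91 FPKM in WT oocytes (SD, n = 3 libraries each). The ratio of means, WT over Mtor CKO, was 10.2 over all libraries and 2.92 without WT replicate 2. The exact permutation test over the 6 libraries gave p = 0.3 (two-sided, where 0.1 is the smallest p that 3 against 3 libraries allow). With no filter on level, limma put its log2 difference at -0.87 (SE 0.473, adjusted p = 0.113). The authors' deposited table lists Depdc5 with a log2 fold of -3.28 and a q-value of 0.00591.

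**Figure D2:**
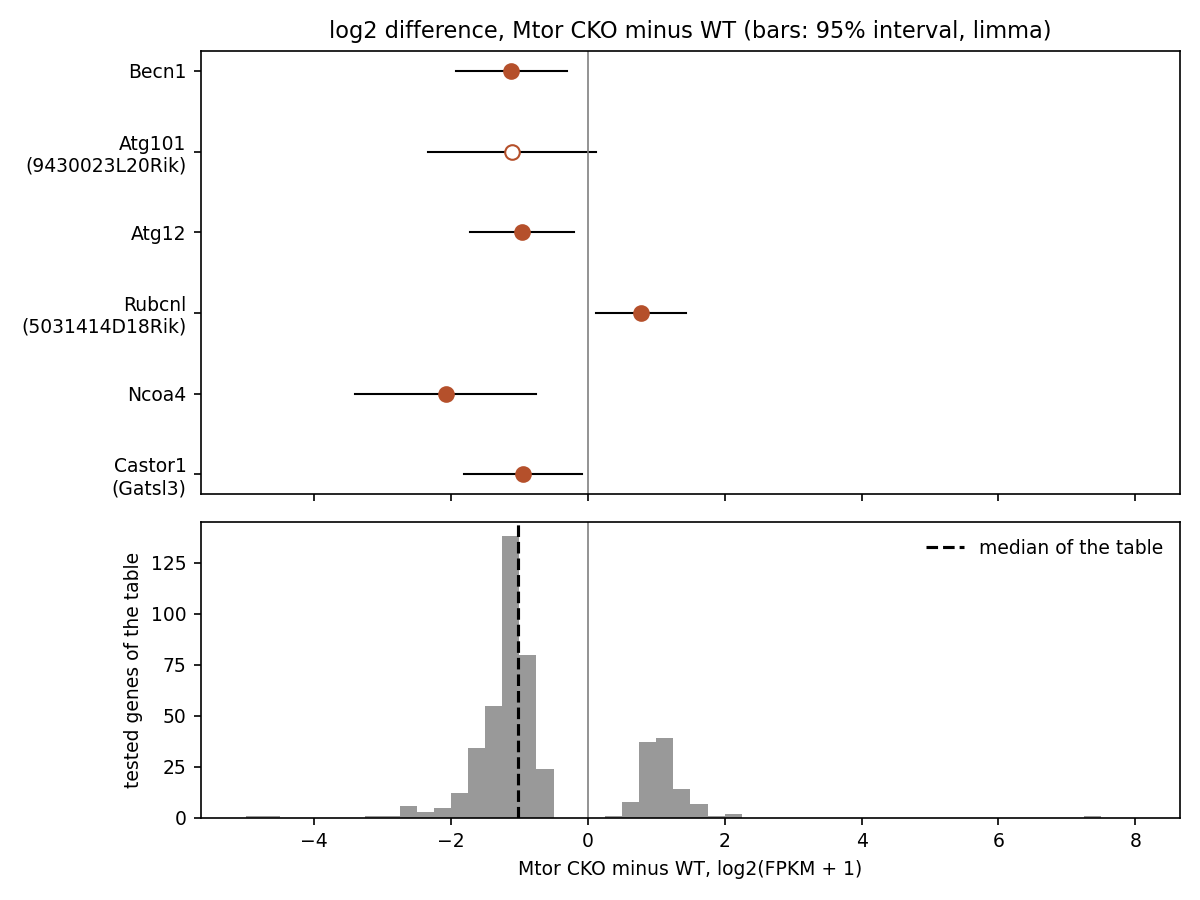
Upper panel: difference of Mtor CKO minus WT in log2(FPKM + 1) for the 6 tested genes, with 95% intervals by limma; filled points passed an adjusted p of 0.05 and the open point, Atg101, did not. Lower panel: the same difference for the 471 tested genes of the table, whose median is -1.03, and in this table of picked rows no tested gene lies near 0.

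Among the tested genes of the table, 3.4% had a lower log2 difference than Ncoa4, 37.6% than Becn1, 38.9% than Atg101, 58.4% than Atg12 and 59.4% than Castor1. For Rubcnl the share was 79.0%. Thus Ncoa4 lay near the lower end of the picked genes and the other lower genes in the middle of them. The exact permutation test gave p = 0.1, the smallest possible, for Becn1, Atg12, Ncoa4, Castor1 and Rubcnl, and p = 0.2 for Atg101.

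The calls depended on which libraries were in the fit. With all 6 libraries the limma adjusted p of the 5 calls lay between 0.0362 and 0.0478, close under the threshold. Leaving out a library also leaves fewer residual degrees of freedom, and the part of this in the loss of calls was not tested. Limma called 0 of the 6 tested genes without Mtor CKO replicate 1, without Mtor CKO replicate 3, without WT replicate 2 or without WT replicate 3, and the number with an unadjusted p under 0.05 was then 3, 3, 1 and 1. It called 3 without WT replicate 1 and 6 without Mtor CKO replicate 2. The count over the whole table moved in the same way, to 4, 5, 3 and 4 genes in the first set of cases, to 242 without WT replicate 1 and to 383 without Mtor CKO replicate 2, against 347 with all libraries. The sign of the difference stayed as it was in these fits, which for the 5 genes whose genotypes did not overlap follows from that and is no sign of stability. With each library centred on its median over the tested genes, which takes out much of the common fall of picked genes, the median of the table moved to -0.28. This upward shift favours rows that are higher in Mtor CKO: over the table, 86 genes were now called higher and 3 lower. Rubcnl kept its call, with a difference of 1.52 (limma adjusted p = 0.0215). Ncoa4, at -1.33, lost its call (limma adjusted p = 0.142). Becn1 at -0.37, Atg101 at -0.36, Atg12 at -0.21 and Castor1 at -0.20 did not pass either (limma adjusted p = 0.45, 0.597, 0.602 and 0.675). Against that background, neither the call kept by Rubcnl nor those lost by the lower genes set them apart from the table.

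**Figure D3:**
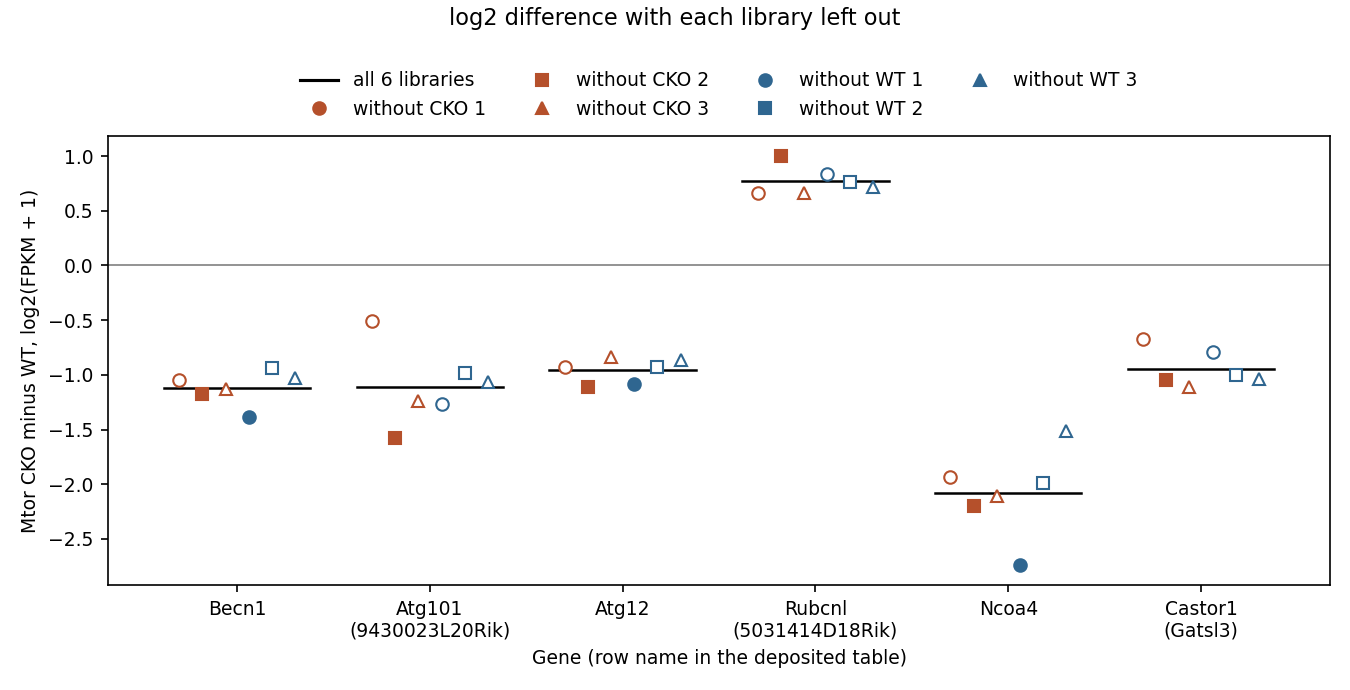
log2 difference, Mtor CKO minus WT, for the 6 tested genes with each library left out in turn; filled symbols passed a limma adjusted p of 0.05 and open ones did not, and the line is the value over all 6 libraries. Atg101 ranges from -1.58 to -0.51 and Ncoa4 from -2.74 to -1.51, on this scale.

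Ratios between genes of the same library do not depend on how that library was scaled. The ratio of Becn1 to Rubcnl was 7.36, 16.9 and 8.12 in Mtor CKO and 29.5, 65.5 and 64.7 in WT. That of Atg12 to Rubcnl was 5.75, 14.4 and 4.94 in Mtor CKO and 23.9, 35.6 and 43.5 in WT, and that of Castor1 to Rubcnl was 0.857, 3.11 and 1.79 in Mtor CKO and 8.80, 7.62 and 8.01 in WT. The genotypes did not overlap in any of these 3 ratios, nor in those of Ncoa4 and Atg101 to Rubcnl, while that of Depdc5 to Rubcnl overlapped. Between the other 6 genes, 14 of 15 ratios overlapped. The exception was Becn1 to Ncoa4, at 5.14 to 6.66 in Mtor CKO and 1.32 to 4.74 in WT. Ncoa4 spread 5.95-fold over the WT libraries, and both rows take in other protein-coding genes. The share of overlapping ratios over all pairs of the table was not computed, so these counts are not read as a result. For Becn1, Atg12, Ncoa4 and Castor1 the separation from WT was fixed in advance. Every Mtor CKO library lay below WT in these genes and above WT in Rubcnl, so their ratios to Rubcnl add nothing to the single values. Because these rows were picked in opposite directions, the ratios to Rubcnl are a description and were not tested.

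**Figure D4:**
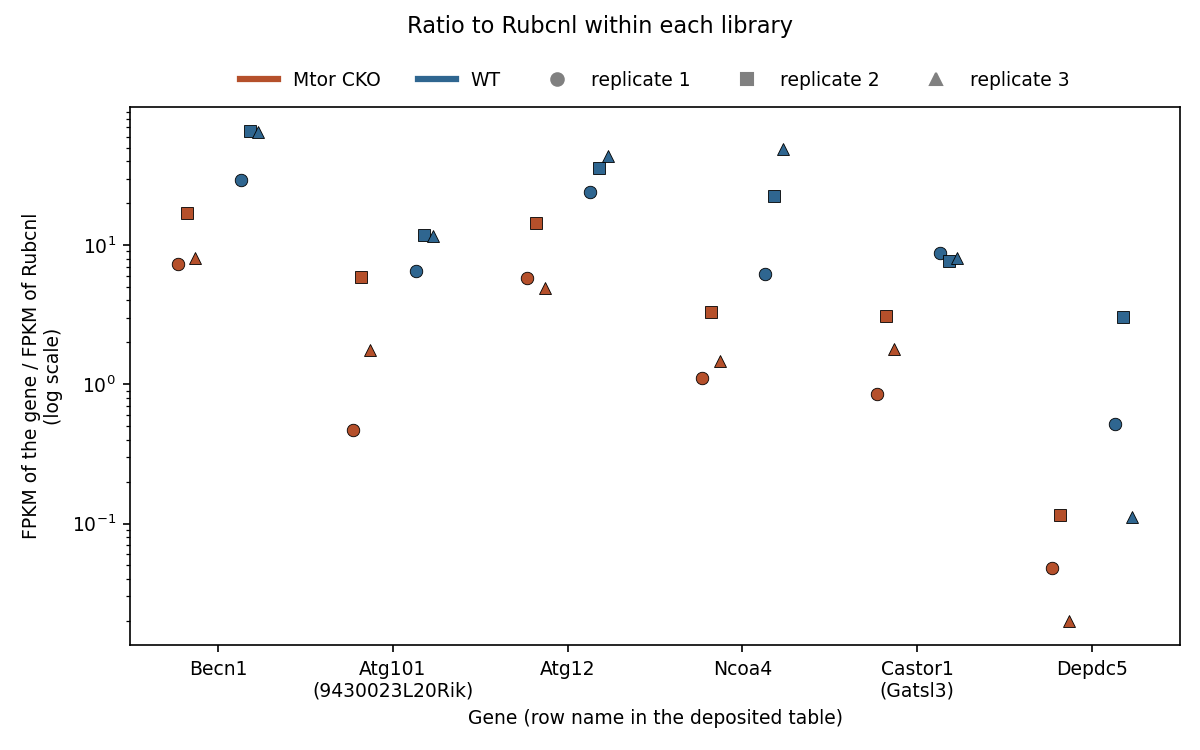
FPKM of each gene divided by that of Rubcnl in the same library, on a log axis, with Mtor CKO in red left of WT in blue and 1 symbol per library. The ratios of Becn1 lie between 7.36 and 16.9 in Mtor CKO and between 29.5 and 65.5 in WT, and those of Depdc5 overlap.

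By level per length, the order in Mtor CKO was Becn1, Atg12, Atg101, Ncoa4, Castor1, Rubcnl and Depdc5. Within that order the ranges of neighbouring genes overlapped except between Atg12 and Atg101 and between Rubcnl and Depdc5. In WT the order was Becn1, Atg12, Ncoa4, Atg101, Castor1, Depdc5 and Rubcnl, and the 1 gap without overlap between neighbours was that between Castor1 and Depdc5. Ncoa4 thus stood at 4.97 FPKM beside Castor1 at 4.96 FPKM in Mtor CKO, whereas in WT their means were 30.0 and 10.2 FPKM. Among the 6 genes that were lower in the authors' deposited table, Mtor CKO replicate 1 was the lowest Mtor CKO library in 4 and replicate 2 the highest in 5. Over the table these libraries held the same places, without a tie, in 49.6% and 50.2% of genes. WT replicate 1 was the lowest WT library in 4 of the 6 genes and in 54.7% of the table.

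The rows of Becn1 and Ncoa4 cover more than the gene they are named for. The Becn1 row (chromosome 11, 101277968 to 101302286, 24.3 kb) also takes in Coa3 and Cntd1, and Cntd1 runs on the opposite strand across part of Becn1. The Ncoa4 row (chromosome 14, 32159865 to 32201898, 42.0 kb) also takes in Timm23, a subunit of the mitochondrial import channel, on the opposite strand. The annotated transcripts listed for these rows are all those of Becn1 (17 of 17) and of Ncoa4 (8 of 8), and the rows further hold 2 and 6 transcripts that the authors assembled from the reads. Coa3, Cntd1 and Timm23 have no row of their own in the table. Coa3 and Timm23 do not overlap the gene that names the row, but lie in the interval for which 1 FPKM is given. Counting by strand is not stated, so reads from the stretch shared by Cntd1 and Becn1 cannot be told apart. The part of these neighbours in the differences was not tested. The Depdc5 row has 15 annotated and 3 assembled transcripts and no other protein-coding gene. The rows of Atg12, Castor1, Atg101 and Rubcnl rest on 1 annotated transcript each.

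**Figure D5:**
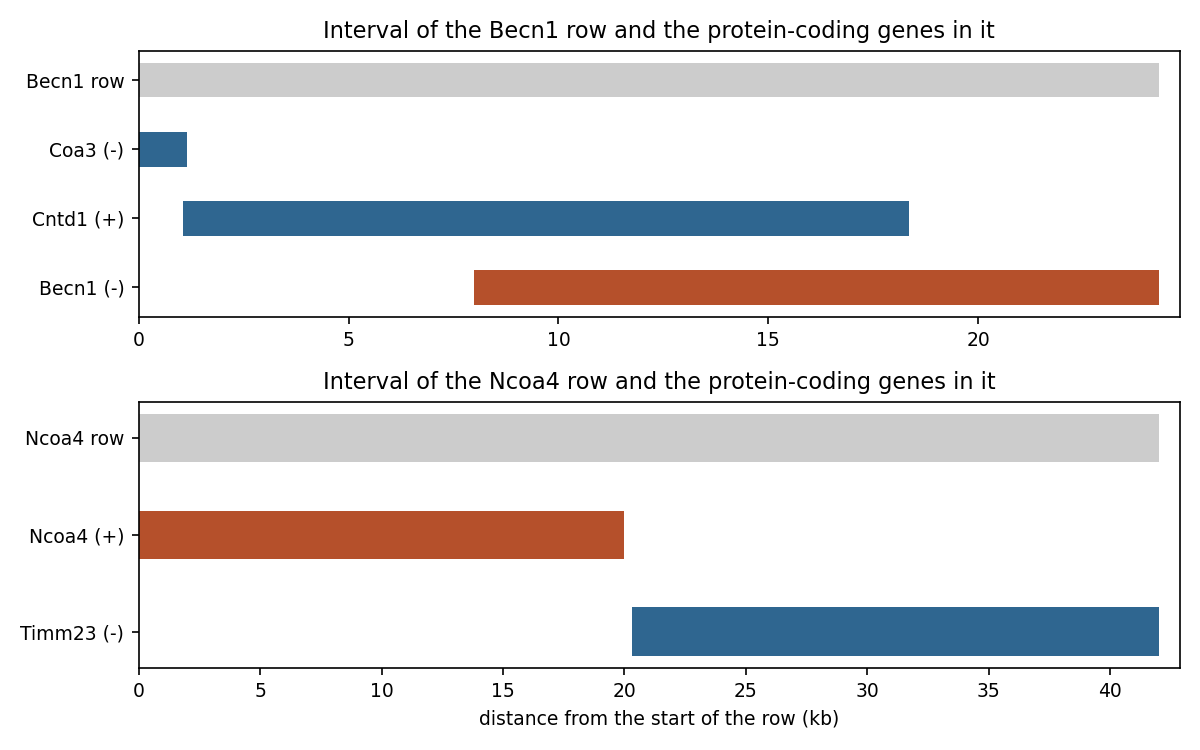
Intervals of the Becn1 row (upper panel) and the Ncoa4 row (lower panel) in grey, with the protein-coding genes of the annotation below, the named gene in red, others in blue and the strand in brackets, against distance from the start of the row in kb. Becn1, on the - strand, fills its row from 7.98 kb to the far end, and Timm23 fills the last part of the Ncoa4 row from 20.3 kb.

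Few other genes of the pathway were in the table. Of 48 genes for the core autophagy machinery, 4 were present, the ones described above. Of 50 for the MTOR complexes and the sensing of nutrients upstream, Castor1 and Depdc5 were present, and of 18 for the outputs of MTORC1 and 33 of the lysosome none was. Of 20 receptors of selective autophagy the table held Ncoa4 and Phb2, and of 13 genes of iron handling Ncoa4 was the 1 present. In all, 8 of 181 genes on these 6 lists were in the table, and a gene that is missing from it has no value here. Phb2, prohibitin 2, a protein of the inner mitochondrial membrane that binds LC3 when mitochondria are degraded, stood at 9.98, 13.2 and 16.2 FPKM in Mtor CKO and at 26.1, 53.0 and 50.5 FPKM in WT. Its log2 difference was -1.60 (limma adjusted p = 0.0362). Both receptors in the table fell, where 60.3% of all tested genes were called lower, so the count does not set the receptors apart. The Phb2 row also lists a snoRNA gene.

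The genes whose values over the 6 libraries most resembled each of the 7 were found by the root mean square difference of log2(FPKM + 1), centred on the mean of the gene. For Becn1 these were Mapk1ip1l (0.11), Vav3 (0.12) and Prc1 (0.12), where the median over the table was 0.45. For Atg12 they were the row Lace1 (0.12), Shq1 (0.13) and Kbtbd4 (0.14), with a median of 0.44 over the table. For Castor1 they were Henmt1 (0.14), Mark3 (0.18) and Sae1 (0.19), with a median of 0.55. Tekt4, Eif5a and a row shared by Tm7sf2, Vps51 and Zfpl1 were closest to Atg101 (0.17, 0.17 and 0.21, median 0.65). Btbd2, Sarnp and 1810009A15Rik were closest to Rubcnl (0.14, 0.16 and 0.17, median 1.03). The nearest to Ncoa4 were Gm13384 at 0.47, Nlrp5 at 0.51 and St6galnac3 at 0.51, where the median over the table was 0.93. Depdc5 had Prdm16 at 0.25, Ece1 at 0.36 and Chst12 at 0.37, where the median was 0.74. Becn1 and Atg12 were closest to each other among the 7, at 0.23, yet Atg12 was only 53rd among the genes nearest to Becn1. Centring on the mean of a gene keeps the difference between the genotypes, for which every row was picked. Likeness by this measure is therefore in part likeness of that difference, and the nearest rows lie below the median by construction.

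Markers of cells that can cling to ovulated oocytes were in the table too. Of 20 markers of cumulus and granulosa cells, Mro and Vcan were in the table, with a summed level of 1.68 to 3.15 FPKM in Mtor CKO and 4.50 to 9.86 FPKM in WT. Vcan had a listed value of 0 in every Mtor CKO library and stood at 4.33, 0.245 and 0 FPKM in WT. The upper end of the WT sum thus came from WT replicate 1. Mro alone stood at 1.68 to 3.15 FPKM in Mtor CKO and 4.50 to 6.06 FPKM in WT. The Vcan row also takes in Xrcc4 and Tmem167. Of 11 markers of oviduct epithelium, Krt7 was in the table, at 4.23 to 10.1 FPKM in Mtor CKO and 2.45 to 4.40 FPKM in WT, and of 13 markers of blood and immune cells none was. The part of such cells in the differences of the 7 genes was not tested.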

How the data were processed

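RNA from 3 Mtor CKO and 3 WT libraries was reverse transcribed using SMARTer ultra-low-input chemistry, and its cDNA received 17 PCR cycles, per the labels' protocols. The submitters' processing notes list TopHat2 2.0.8b, Cufflinks 2.1.1 and Cuffdiff, with build mm10. The deposited table gives FPKM per library and per group, a log2 fold change, and a p-value and q-value per gene, as made by the authors. Its fold column equals the log2 of CKO over WT group FPKM within 0.001 in 513 of 516 genes, although headed the other way. FPKM keep no depth, so no counting interval is given. The deposited starts count from 0: after adding 1, 268 rows matched an annotated gene start in GENCODE M21 (GRCm38), against 4 before.

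Limma 3.58.1 in R 4.3.3 was fitted with the empirical Bayes trend to log2(FPKM + 1) of genes with at least 1 FPKM in at least 3 libraries (471), Mtor CKO minus WT, with Benjamini-Hochberg adjustment at 0.05. "Rose" and "fell" mean past that threshold. The fit was also run on simulated data as a check of the code. Those data had the same spread for every gene, taken from the Mtor CKO libraries, so the check says little of the calls here. Means and SDs are over libraries. Single genes also had a two-sided exact permutation test. Named genes are the 7, other rows on 6 pathway lists, genes inside their intervals, and the 3 rows most alike to each. The members and lists were chosen with earlier results of these data known. List symbols were matched to current and older RefSeq names. Alternatives changed the pseudocount, filter, scaling, trend, block and libraries.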

Additional observations from a re-analysis of the deposited data

How the results depend on the processing

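Over 13 alternative limma fits of the 6 tested genes, 45 of 78 values stayed on the same side of the threshold, 31 lost a call and 2 gained one. No direction turned, which without overlap between the genotypes (5 of the 6 genes) is largely fixed when a library is left out. The count of called members was 5 and became 3 with no filter and 1 with each library centred on its median, and ran from 0 to 6 when leaving out 1 library. Among all tested genes, 347 were called (63 higher, 284 lower), 89 (86 higher, 3 lower) with each library centred on its median, and 3 to 383 when leaving out 1 library. Leaving out a library also leaves fewer residual degrees of freedom; otherwise the cause was not tested. With the replicate number as a block, 405 genes and 5 members were called: the call of Castor1 was lost (limma adjusted p = 0.0539) and Atg101 passed (limma adjusted p = 0.0404). The deviations of same-numbered libraries correlated by 0.115, 0.24 and 0.084 for numbers 1, 2 and 3. Those of differently numbered libraries correlated by -0.218 to 0.118. Of 6 libraries, 4 correlated best with their own number. These values do not settle whether the numbers pair the libraries, and the fit without a block was kept as the main one. Depth per library is unknown, which limits what can be said of Depdc5 and Rubcnl, the lowest of the 7 genes in WT.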
